A study of Mus musculus with 36 samples.

Results

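A group of 9 genes of retinoid synthesis, transport and clearance, read by 11 probe sets, was followed in whole mouse lung on single-colour Affymetrix arrays that carry 45101 probe sets and, by the platform annotation used here, 18193 named genes. They are Aldh1a1, Aldh1a2, Aldh1a3, Rbp4, Rbp7, Crabp1, Stra6, Cyp26b1 and Dhrs3, found by gene symbol. The group was chosen by the measured values of Aldh1a3, which were higher after ovalbumin (OVA) in mice coded MC and stayed at the floor in mice coded MCifngR. These values are given below as a description and without a test. Of the 9 genes, 7 exceeded a log2 intensity of 5 in at least 3 arrays and entered the tests. Stra6 and Crabp1 did not. Aldh1a3 entered only through its values in OVA-treated mice coded MC and was under 5 in every other array, so a comparison without that group could hardly call it.

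The study is a mouse model of severe asthma with 36 lung samples in 10 groups, 1 array each. OVA mice were immunised by 3 intraperitoneal injections of 50 µg OVA on days 1, 4 and 7. From day 12 they received 20 µg OVA intranasally each week for 9 weeks, and the control mice were given phosphate-buffered saline (PBS) by the same routes and timing. All groups are C57BL/6 and are described as female and age-matched, with no age stated. WT mice are wild type (4 OVA and 4 PBS arrays). KitWsh mice carry the sash allele of Kit, which leaves them without mast cells (4 OVA and 3 PBS arrays). Engrafted KitWsh mice carry the codes MC, MCifngR or MCigeR and are named here KitWsh_MC, KitWsh_MCifngR and KitWsh_MCigeR (4 OVA and 3 PBS arrays each). All 3 share the Kit mutation of their KitWsh controls. The codes are not spelled out in the labels. The genotype label of KitWsh_MCigeR mice adds FcεRIγ-/-, which may belong to the donor cells or to the recipient, and IFN-γR1-/- mice are among the strains the protocol lists. In whole lung, fewer cells of a type and less RNA per cell cannot be told apart.

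Retinol, the alcohol form of vitamin A, travels in blood on retinol-binding protein 4 and enters some cells through the receptor STRA6. Inside cells it is oxidised to retinal and then, by the ALDH1A enzymes, irreversibly to retinoic acid, which acts through the nuclear receptors RAR and RXR. CYP26 enzymes break retinoic acid down and DHRS3 returns retinal to retinol. In the lung, retinoic acid is known for its role in forming alveoli and in keeping the airway epithelium mucociliary rather than squamous.

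Lung identity was clear in all 36 arrays: Sftpc, the surfactant protein of alveolar type 2 cells, lay between 12.51 and 15.51, and Scgb1a1 of club cells between 15.37 and 15.89. KitWsh_MCigeR PBS array 2 stood apart, with a median correlation of 0.543 to the other arrays and a 3' minus 5' beta-actin difference of 8.43 log2 units, a measure of RNA breakdown that ran from 1.17 to 6.23 in the other 35. A further 3 arrays went against their labels: in WT OVA array 4 Kit read only 6.90, with a mean Y-linked value of 7.28, and KitWsh_MCifngR OVA arrays 2 and 3 had Y-linked values of 7.71 and 7.30 where the other 33 arrays had at most 2.66. Kit was 9.86 to 10.97 in the other 7 WT arrays and 4.52 to 7.52 in the 28 KitWsh arrays. Results that these arrays decide are given with and without them. Whether each sample came from its own animal is not stated, and the p-values therefore cover no more than sample-to-sample spread, which may be technical.

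Among the enzymes that make retinoic acid, Aldh1a3 was measured by 3 probe sets, and only 1448789_at left the floor. In KitWsh_MC OVA lungs its log2 intensities were 5.95, 6.48, 6.46 and 3.99, against 2.25, 2.19 and 2.25 in KitWsh_MC PBS lungs. Of the 4 OVA arrays, 3 exceeded 5 and the last did not, and the groups did not overlap. In KitWsh_MCifngR lungs the values were 2.25, 2.23, 2.22 and 2.25 with OVA and 2.30, 2.25 and 2.25 with PBS, which is the floor of the method. WT lungs had 3.40, 2.25, 2.61 and 2.25 with OVA and 2.47, 2.25, 2.25 and 2.25 with PBS, so that WT mice, which have mast cells of their own, also stayed under 5. All KitWsh and KitWsh_MCigeR arrays lay between 2.19 and 2.30. The KitWsh_MC OVA mean was 5.72 ± 1.18 (SD, n = 4), the OVA minus PBS difference was 3.50 ± 0.33 (standard error), and the level was at least 1.65-fold above PBS when the lower group is set to log2 5. Without KitWsh_MC OVA array 4 the difference was 4.07. These are the values that chose the group and carry no test.

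The remaining probe sets of Aldh1a3 did not show the same step. Probe set 1417642_at, which the platform annotation assigns to the same transcript accession as 1448789_at, stayed between 2.19 and 2.32 in all 36 arrays. Probe set 1427395_a_at read 2.19, 2.58, 2.57 and 2.34 in KitWsh_MC OVA lungs and reached its highest value, 3.63, in KitWsh_MCigeR PBS array 2. The values of Aldh1a3 therefore rest on 1 of 3 probe sets, as the plot of its probe sets shows.

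**Figure D1:**
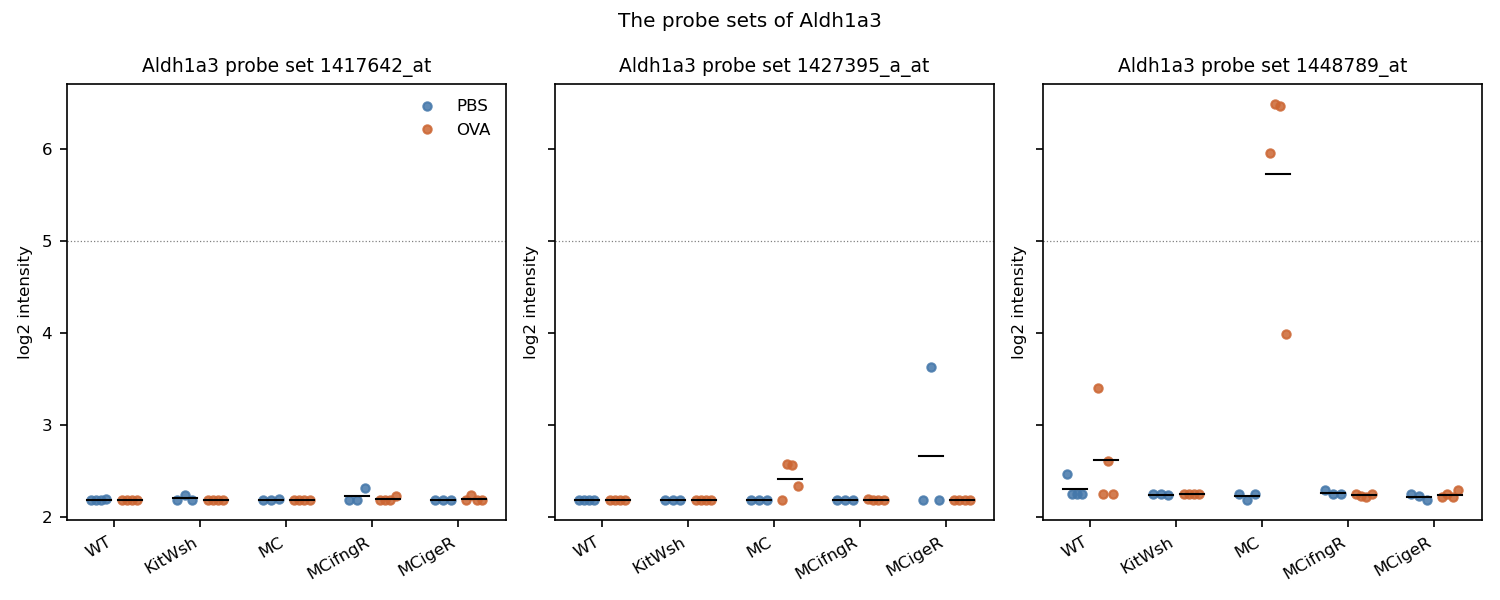
Log2 intensity of each Aldh1a3 probe set (y axis) in PBS (blue) and OVA (orange) lungs of 5 kinds of mice (x axis; MC, MCifngR and MCigeR stand for the engrafted KitWsh mice). Each point is an array, each bar a group mean, and the dotted line the filter value of 5. Only 1448789_at rises above it, in 3 of 4 KitWsh_MC OVA arrays.

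The goblet cell marker list (9 of 10 genes passed the filter, all but Foxa3) was high in the same lungs, with a summed level of 12.15 to 14.20 on the log2 scale in KitWsh_MC OVA and 9.08 to 9.66 in KitWsh_MC PBS arrays. It reached 11.29 to 14.83 in WT OVA and 8.97 to 14.76 in KitWsh_MCifngR OVA lungs, where Aldh1a3 was at the floor. Of the 8 basal and squamous epithelial markers, Dsg3 was not found by symbol. The others (Krt5, Krt14, Krt15, Trp63, Krt4, Krt13 and Ngfr) did not pass the filter. The part of either cell type in the Aldh1a3 values was not tested. KitWsh_MC OVA array 2, with Aldh1a3 at 6.48, also had a beta-actin difference of 6.23, while the arrays at 5.95, 6.46 and 3.99 had 2.33, 2.21 and 2.61.

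Across the 36 arrays the genes most like Aldh1a3 by Pearson's r were Il6 (0.860), which encodes the cytokine interleukin-6, Itgb8 (0.832), an integrin subunit, Retnlb (0.787), a secreted protein of goblet cells, Ssr3 (0.783) and S100a14 (0.775). Il6 lay between 4.53 and 6.54 in KitWsh_MC OVA lungs and at 2.36 in all KitWsh_MC PBS lungs. Retnlb spanned 2.57 to 6.98 in KitWsh_MC OVA lungs and was at 2.19 in the PBS lungs of every kind. These correlations describe how the arrays order and rest largely on the 4 KitWsh_MC OVA arrays: over the 32 arrays of the other 9 groups the highest were Chl1 (0.770), B3gnt8 (0.660), Hmox1 (0.650), Slc7a8 (0.639) and Il1rn (0.637). Without KitWsh_MCigeR PBS array 2 the closest were Il6 (0.925) and Itgb8 (0.835).

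Aldh1a1, the retinal dehydrogenase typical of airway epithelium, was near the top of the intensity range and moved little. WT arrays read 13.89, 13.79, 13.78 and 13.95 with PBS and 13.55, 13.48, 13.66 and 14.27 with OVA, a difference of −0.11 ± 0.30 (adjusted p = 0.946, limma). The value of 14.27 is that of WT OVA array 4, and the other 3 lay under all WT PBS arrays. Without the 4 arrays that stood apart or went against their labels, the difference was −0.29 ± 0.14 (limma, adjusted p = 0.156). KitWsh arrays read 14.04, 14.01 and 14.24 with PBS and 13.91, 13.59, 13.90 and 13.63 with OVA. All 4 OVA arrays of KitWsh mice lay under the 3 PBS arrays, yet the difference of −0.34 ± 0.33 did not pass the test (adjusted p = 0.779, and 0.218 without KitWsh_MCigeR PBS array 2). In KitWsh_MC mice, described without a test, OVA arrays at 13.70, 13.31, 13.50 and 13.66 lay under PBS arrays at 13.99, 13.99 and 14.00. KitWsh_MCifngR OVA arrays read 14.32, 14.32, 14.28 and 13.47, the last being far from the others. The highest group mean was 14.24 ± 0.09 in KitWsh_MCifngR PBS and the lowest 13.23 ± 1.37 in KitWsh_MCigeR PBS, whose array 2 read 11.65. Of neighbours in the order of group means, only KitWsh PBS and KitWsh_MC PBS had ranges that did not meet.

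Aldh1a2, the enzyme of mesenchyme and mesothelium, had group means between 7.84 and 8.49, apart from 6.71 ± 2.06 in KitWsh_MCigeR PBS, and each pair of neighbours in the order of group means overlapped. KitWsh_MCigeR PBS arrays read 7.51, 4.37 and 8.25, and OVA arrays 7.98, 7.81, 7.86 and 8.39. The OVA minus PBS difference of 1.30 ± 0.46 passed the test with all arrays (limma, adjusted p = 0.0491) and was 0.13 ± 0.25 (adjusted p = 0.988) without array 2, which alone was low. Aldh1a2 was the 1 of 7 tested genes called in this comparison, against 19.0% of all 11599 genes called in either direction. None of the 7 was called without array 2, when the share over all genes was 0%. The 7 include Aldh1a3, which was at the floor in these arrays and could hardly be called. At an unadjusted p under 0.05 the counts were 3 of 7 with array 2, where 45.7% of all genes passed, and 0 without it, where 6.35% did. In WT lungs the difference was −0.20 ± 0.43 (adjusted p = 0.92). KitWsh_MCifngR OVA arrays read 8.67, 8.26, 8.63 and 8.41, all above the PBS arrays at 7.92, 8.11 and 7.72, which is given without a test.

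Outside the comparisons whose values chose the group, the clearest change was in Rbp7, a cellular retinol-binding protein known from adipose tissue and endothelium. The genes were listed with earlier results of these data known, so its tests are not shown to be independent of the listing. In WT lungs Rbp7 read 5.62, 4.58, 5.26 and 5.44 with PBS and 3.81, 3.86, 3.57 and 4.59 with OVA. All OVA values were under 5, and only the highest of them, 4.59 in WT OVA array 4, reached the lowest PBS value. The difference was −1.27 ± 0.31 (limma, adjusted p = 0.0372), a fall of at least 1.17-fold when the OVA group is set to log2 5. It was −1.48 ± 0.31 (adjusted p = 0.00297) without the 4 arrays that stood apart or went against their labels. In KitWsh lungs, which lack mast cells, Rbp7 read 6.30, 6.04 and 4.53 with PBS and 4.53, 3.47, 4.44 and 3.74 with OVA, a difference of −1.58 ± 0.34 (adjusted p = 0.0361) and a fall of at least 1.54-fold. The difference between these responses was −0.31 ± 0.46 (KitWsh minus WT, adjusted p = 1).

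Rbp7 was the 1 of 7 tested genes called in WT mice, where 1.36% of all genes were called, and the 1 of 7 in KitWsh mice, where 0.621% were. Aldh1a3 is among the 7 and could hardly be called in either. Leaving out WT OVA array 1, 2 or 3 ended the WT call (adjusted p = 0.127, 0.138 and 0.119), as did leaving out WT PBS array 1, 3 or 4 (0.137, 0.0953 and 0.0695). The KitWsh call ended without KitWsh OVA array 2 or 4 (0.176 and 0.139) and without KitWsh PBS array 1 or 2 (0.183 and 0.186). The direction held in each of these fits.

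In the engrafted mice the Rbp7 values differed by kind. KitWsh_MC lungs had 4.56, 4.92 and 4.61 with PBS and 4.24, 3.86, 3.94 and 4.26 with OVA. Every OVA array lay under every PBS array, as a difference of −0.62 ± 0.34. All values were under 5, so no fold is given. KitWsh_MCifngR lungs had 4.56, 4.36 and 4.73 with PBS and 4.74, 5.80, 5.78 and 5.22 with OVA, so that every OVA array lay above every PBS array. The difference of 0.83 ± 0.34 was 0.43 ± 0.37 without the 4 doubted arrays, which include the arrays at 5.80 and 5.78. The KitWsh_MCifngR OVA arrays that remain, 1 and 4, had 3' minus 5' GAPDH differences of 7.51 and 5.69. Those left out, 2 and 3, had 1.28 and 2.25. The beta-actin differences were 4.81 and 3.48 against 2.26 and 2.97. The KitWsh_MC and KitWsh_MCifngR comparisons of OVA with PBS are descriptions. In KitWsh_MCigeR lungs the values were 4.87, 4.44 and 4.56 with PBS and 4.50, 4.86, 4.61 and 5.29 with OVA, and the difference of 0.19 ± 0.34 was within the spread. Rbp7 exceeded 5 in 9 of the 36 arrays, so most of its values lay under the filter value.

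Of 10 adipocyte markers 3 passed the filter. Lep, Cidec, Retn and Pck1 did not pass, and Plin1, Cfd and Adrb3 were not found by symbol. The 3 were Adipoq, Fabp4 and Cidea. Adipoq, the fat cell hormone adiponectin and the only marker given singly, fell by 2.86 ± 0.67 in WT OVA lungs (limma, adjusted p = 0.0298). In KitWsh OVA lungs its difference was −2.10 ± 0.73 (limma, adjusted p = 0.173). The summed level of the 3 did not follow Adipoq. It was 9.26 to 9.83 in WT PBS and 9.58 to 11.45 in WT OVA arrays, and so reached higher with OVA. The fall of Adipoq is therefore not a fall of the marker list. In KitWsh mice it was 8.86 to 10.32 with PBS and 9.23 to 10.41 with OVA. The 9 endothelial markers, all of which passed, summed to 14.62 to 14.85 in WT PBS and 14.44 to 14.70 in WT OVA arrays. None of the 9 was called there, where 1.36% of all genes were, so that count says little about these markers. Their part in the Rbp7 result was not tested.

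**Figure D2:**
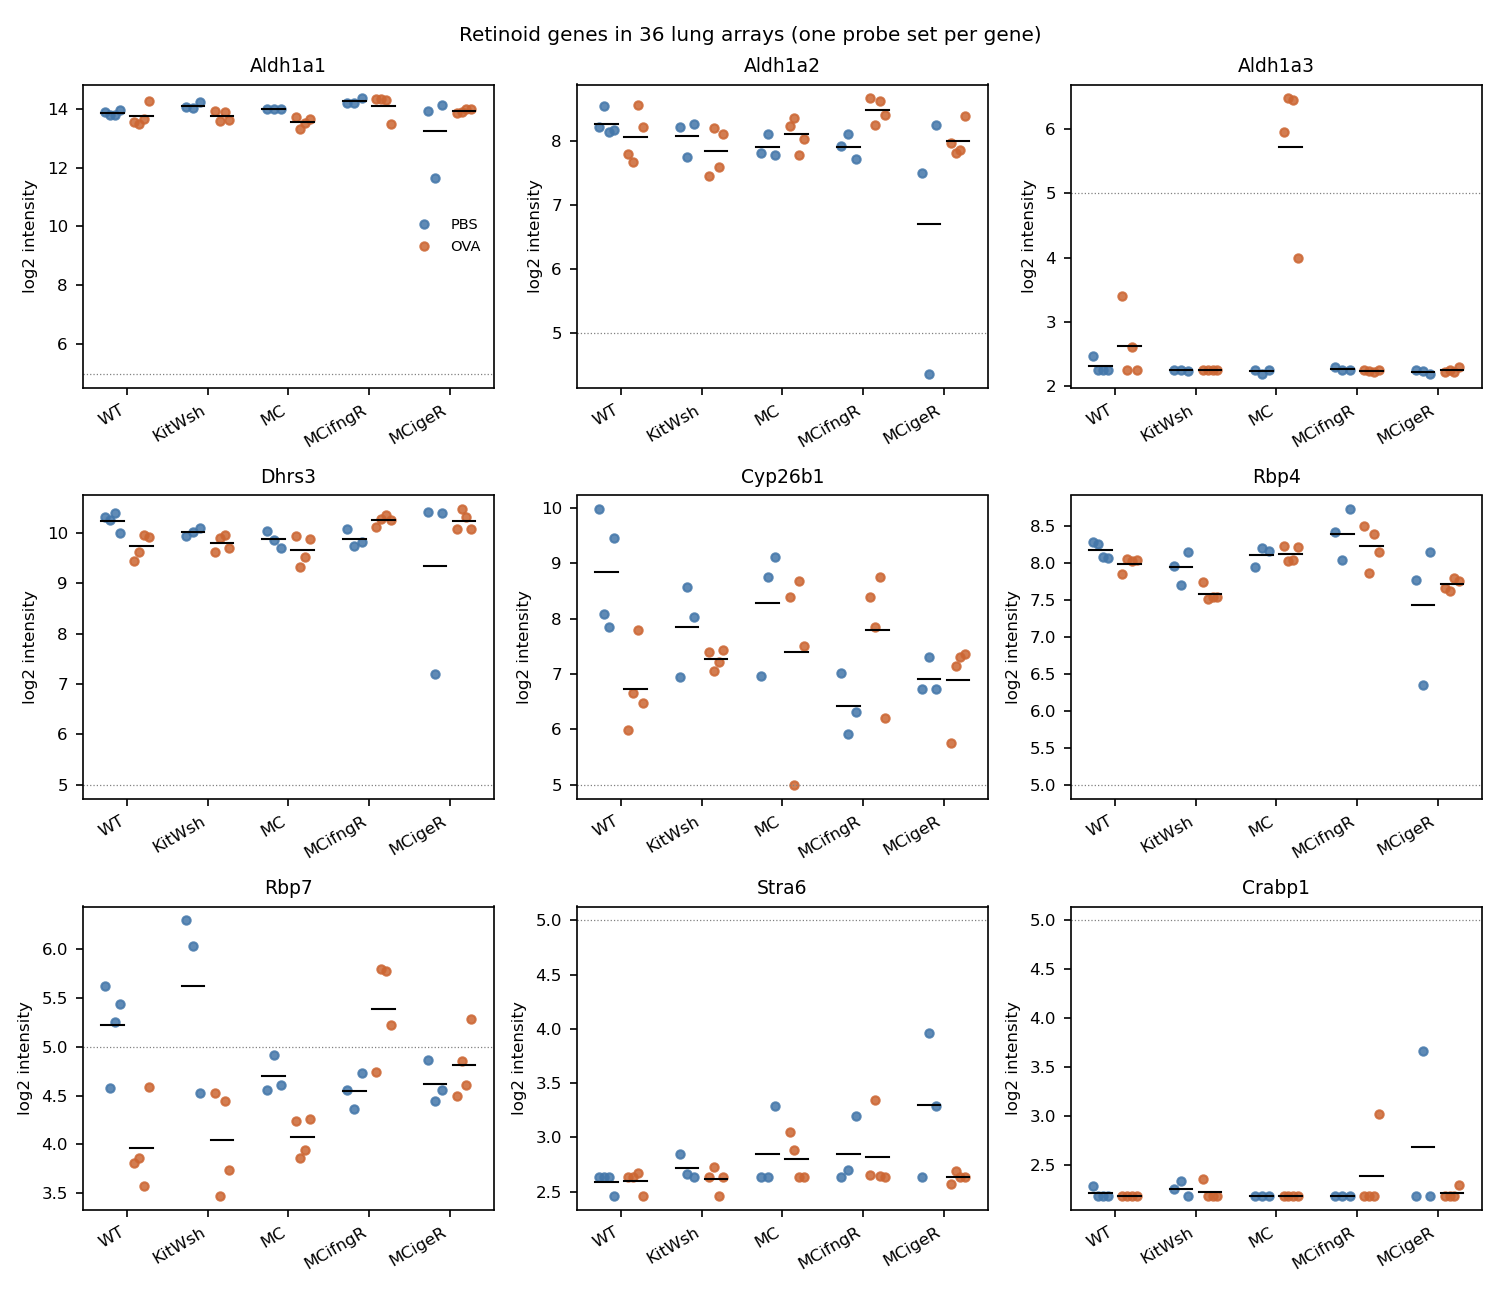
Log2 intensity (y axis, scaled per panel) of the 9 genes in PBS (blue) and OVA (orange) lungs of 5 kinds of mice (x axis). Points are arrays, bars group means and the dotted line the filter value of 5. Aldh1a3 leaves the floor in KitWsh_MC OVA lungs, and Rbp7 is lower with OVA in WT, KitWsh and KitWsh_MC lungs. KitWsh_MCigeR PBS array 2 is the low blue point of Aldh1a1, Aldh1a2, Dhrs3 and Rbp4.

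Rbp4, the plasma carrier of retinol, lay between 7.51 and 8.72 in 35 arrays and at 6.35 in KitWsh_MCigeR PBS array 2. WT arrays read 8.28, 8.25, 8.07 and 8.06 with PBS and 7.85, 8.05, 8.02 and 8.03 with OVA. The groups did not overlap, but the difference of −0.18 ± 0.23 did not pass the test (limma, adjusted p = 0.826, and 0.425 without KitWsh_MCigeR PBS array 2). KitWsh OVA arrays, at 7.74, 7.51, 7.53 and 7.54, all lay under the WT OVA arrays, a difference of −0.41 ± 0.23 (adjusted p = 1, and 0.243 without that array). KitWsh_MC OVA arrays, at 8.22, 8.02, 8.03 and 8.21, lay above the KitWsh OVA arrays by 0.54 ± 0.23, given without a test since KitWsh_MC OVA lungs chose the genes. KitWsh_MCigeR OVA arrays read 7.66, 7.62, 7.79 and 7.75 and overlapped the KitWsh OVA arrays. The order of group means ran from 8.39 ± 0.34 in KitWsh_MCifngR PBS to 7.42 ± 0.95 in KitWsh_MCigeR PBS, and every pair of neighbours overlapped.

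The genes most like Rbp4 over 36 arrays were Eef1akmt2 (0.849), Iftap (0.844), Tbce (0.837), Rai14 (0.836) and Spata6 (0.831). Without KitWsh_MCigeR PBS array 2 they gave way to Ptgr1 (0.713), Pfn2 (0.710), Lnx1 (0.693), Tmem29 (0.689) and Ccdc160 (0.687). Crabp1, a cytoplasmic carrier of retinoic acid, lay between 2.19 and 3.67 in all arrays. Stra6, the retinol receptor, lay between 2.46 and 3.96. Neither was measured above the filter in any group, and the highest value of each came from KitWsh_MCigeR PBS array 2.

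Cyp26b1, which breaks retinoic acid down, was lower after OVA in every WT array. WT PBS arrays read 9.97, 8.09, 7.84 and 9.45, and WT OVA arrays 5.99, 6.66, 7.79 and 6.47. The difference was −2.11 ± 0.64. With all 36 arrays it missed the threshold (limma, adjusted p = 0.085), and it passed without KitWsh_MCigeR PBS array 2 (0.0361) or without KitWsh_MC OVA array 2 (0.0399), neither of which belongs to the groups compared. KitWsh PBS arrays read 6.95, 8.56 and 8.03, and KitWsh OVA arrays 7.39, 7.05, 7.21 and 7.43, for a difference of −0.58 ± 0.70 (adjusted p = 0.863). The responses of KitWsh and WT mice differed by 1.54 ± 0.95 (adjusted p = 0.918), so a difference between them was not detectable.

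In the engrafted mice Cyp26b1 was widely spread. KitWsh_MC arrays read 6.97, 8.75 and 9.11 with PBS and 8.39, 5.00, 8.68 and 7.51 with OVA, the value of 5.00 being that of the array with the beta-actin difference of 6.23. KitWsh_MCifngR arrays read 7.01, 5.92 and 6.32 with PBS and 8.39, 7.85, 8.75 and 6.20 with OVA, and the groups overlapped. Among PBS lungs KitWsh_MCifngR lay under KitWsh_MC by 1.86 ± 0.74, which did not pass the test (difference −1.86, adjusted p = 0.181, and 0.0845 without KitWsh_MCigeR PBS array 2). KitWsh_MCigeR arrays read 6.72, 7.30 and 6.72 with PBS and 5.75, 7.14, 7.30 and 7.36 with OVA.

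Dhrs3, which reduces retinal to retinol and so lowers the supply for retinoic acid, was also lower in every WT OVA array. WT PBS arrays read 10.32, 10.25, 10.40 and 10.00, and WT OVA arrays 9.45, 9.62, 9.95 and 9.91. The difference of −0.51 ± 0.37 did not pass with all arrays (limma, adjusted p = 0.585). It passed without KitWsh_MCigeR PBS array 2 (standard error 0.14, adjusted p = 0.0245), whose Dhrs3 value of 7.21 beside 10.42 and 10.40 widened the pooled spread. KitWsh arrays read 9.93, 10.02 and 10.09 with PBS and 9.62, 9.90, 9.96 and 9.70 with OVA, and overlapped. KitWsh_MCifngR OVA arrays, at 10.11, 10.28, 10.36 and 10.25, all lay above their PBS arrays at 10.08, 9.75 and 9.82, which is a description. KitWsh_MC arrays read 10.04, 9.87 and 9.71 with PBS and 9.94, 9.32, 9.52 and 9.89 with OVA. In OVA mice KitWsh_MCigeR arrays (10.07, 10.47, 10.31 and 10.08) lay above all KitWsh arrays, a difference of 0.43 ± 0.37 (adjusted p = 1, and 0.126 without KitWsh_MCigeR PBS array 2).

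Without KitWsh_MCigeR PBS array 2, then, 3 of the 7 tested genes were called lower in WT OVA lungs, Rbp7 (adjusted p = 0.0131), Cyp26b1 and Dhrs3, where 9.32% of all genes were called and 5.35% were called lower. KitWsh OVA lungs had 1 gene called, Rbp7 (adjusted p = 0.00755), against 6.55% of all genes. The 7 again include Aldh1a3, which could hardly be called in either kind. The plot of OVA minus PBS differences sets the kinds of mice side by side.

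**Figure D3:**
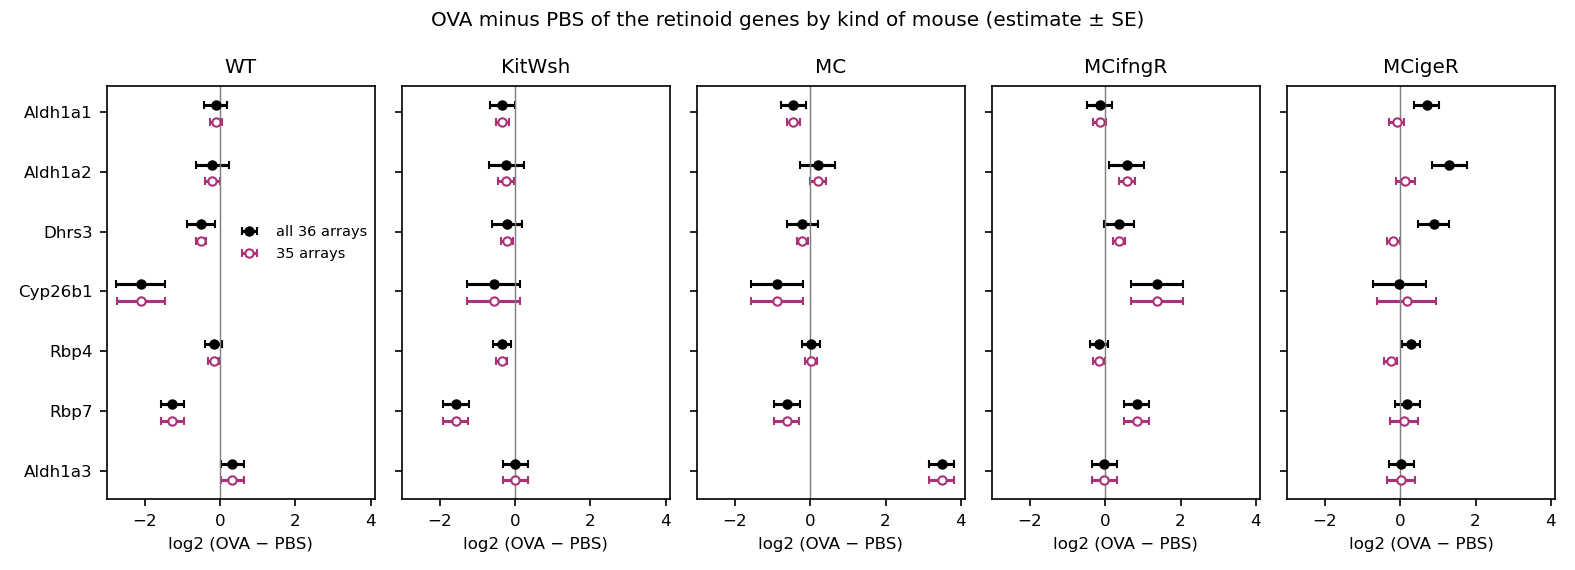
OVA minus PBS difference in log2 intensity (x axis) of the 7 genes that passed the filter (y axis) in each kind of mouse, as estimate ± standard error from the limma fit with all 36 arrays (filled) and with 35 arrays, without KitWsh_MCigeR PBS array 2 (open). Cyp26b1 and Rbp7 lie left of 0 in WT mice, and the filled and open estimates part only for KitWsh_MCigeR mice. The MC and MCifngR panels chose the genes and carry no test.

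The promoters of the 3 genes that were lower in WT OVA lungs are shown so that their starts can be compared. Each is the 250 bases before a RefSeq start of transcription in build GRCm38.p6. Rbp7 lies on the minus strand at chr4:149454969-149455218, Cyp26b1 on the minus strand at chr6:84593811-84594060, and Dhrs3 on the plus strand at chr4:144892577-144892826. Capitals mark the TATA box TATAAA, the GC box GGGCGG and the CAAT box CCAAT, or their reverse complements.
Rbp7: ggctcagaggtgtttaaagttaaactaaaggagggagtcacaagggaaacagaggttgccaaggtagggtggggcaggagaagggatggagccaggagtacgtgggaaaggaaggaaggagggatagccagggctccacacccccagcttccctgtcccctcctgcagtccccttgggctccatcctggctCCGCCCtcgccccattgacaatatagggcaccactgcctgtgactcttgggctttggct
Cyp26b1: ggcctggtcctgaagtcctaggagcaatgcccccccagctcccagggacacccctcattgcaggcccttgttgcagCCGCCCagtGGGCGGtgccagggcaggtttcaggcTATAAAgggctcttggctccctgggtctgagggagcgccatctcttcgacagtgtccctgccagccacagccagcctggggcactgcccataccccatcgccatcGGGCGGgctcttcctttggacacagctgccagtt
Dhrs3: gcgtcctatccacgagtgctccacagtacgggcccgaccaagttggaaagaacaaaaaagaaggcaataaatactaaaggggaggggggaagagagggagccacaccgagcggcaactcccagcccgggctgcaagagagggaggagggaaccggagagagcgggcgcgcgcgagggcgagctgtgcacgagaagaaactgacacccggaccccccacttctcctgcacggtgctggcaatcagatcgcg
Rbp7 holds 1 GGGCGG site, Cyp26b1 holds 1 TATAAA and 3 GGGCGG sites, and Dhrs3 holds none of these motifs in this window. Dhrs3 has 3 RefSeq windows, of which the first listed is shown, and CCAAT occurs in another. Over all 32851 RefSeq promoter windows of 300 bases (250 before and 50 after the start), 13.6% hold TATAAA, 35.7% GGGCGG and 37.4% CCAAT. Retinoic acid receptors are known to bind paired 6-base sites. The sites searched, on both strands, were AGGTCA, then AGTTCA, then GGTTCA and lastly GGGTCA. A single match was found in 43.7% of all windows and in 3 of the 15 windows of 8 of the 9 genes (Aldh1a1, Rbp4 and Stra6). A pair in the same direction with 5 bases between was in 0.0974% of all windows and in none of the 15. The same held for pairs 2 bases apart (0.268%) and 1 base apart (0.222%). A match is a run of letters only.

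Between kinds of mice, none of the 6 genes other than Aldh1a3 that passed the filter was called in the tested comparisons (limma). This held with all arrays and without KitWsh_MCigeR PBS array 2. Between KitWsh and WT mice the count was 0 of 6 with PBS, where 1.18% of all genes were called (7.92% without that array), and 0 of 6 with OVA, where 0.121% were (0.216%). The OVA response of KitWsh minus WT gave 0 of 6, beside 0.00862% of all genes (0.181%). KitWsh_MCigeR minus KitWsh with OVA gave 0 of 6, beside 0.509% (1.61%). KitWsh_MC minus KitWsh with PBS gave 0 of 6, beside 1.20% (12.0%), and KitWsh_MCifngR minus KitWsh_MC with PBS 0 of 6, beside 2.91% (15.2%). At an unadjusted p under 0.05 the counts were 0, 0, 0, 1, 1 and 1, in that order, beside 12.2%, 4.89%, 6.74%, 6.82%, 12.8% and 16.7% of all genes. Without that array they were 0, 1, 0, 2, 1 and 1, beside 23.3%, 9.04%, 14.2%, 13.1%, 27.2% and 31.7%. KitWsh, KitWsh_MC and KitWsh_MCifngR comparisons share arrays.

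The wider pathway was described through 6 lists: retinol carriers, uptake and storage; conversion between retinol and retinal; other genes of retinoic acid synthesis and clearance; the receptors and their partners; known retinoic acid targets; and other aldehyde dehydrogenases. Of 91 listed genes, 83 were found by symbol and 58 passed the filter. None of the 58 was called in WT or KitWsh OVA lungs against PBS (limma), where 1.36% and 0.621% of all genes were. At an unadjusted p under 0.05 there were 9 and 8, beside 15.5% and 13.1% of all genes. Their median OVA minus PBS difference was −0.14 in WT mice, beside −0.03 over all genes, and −0.13 in KitWsh mice, beside −0.10. None was called between KitWsh and WT mice with PBS or OVA, in their OVA response, or between KitWsh_MCigeR and KitWsh OVA mice with all arrays (6, 4, 3 and 4 at an unadjusted p under 0.05, beside 12.2%, 4.89%, 6.74% and 6.82% of all genes).

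Without KitWsh_MCigeR PBS array 2, 5 of the 58 were called in WT OVA lungs, 3 of them lower, which is near the 9.32% called over all genes. Aox1, an aldehyde oxidase that can make retinoic acid from retinal, fell by 0.91 ± 0.27 (limma, adjusted p = 0.0325). Rarres2, the chemokine chemerin, fell by 0.47 ± 0.15 (0.0393), and Meis2, a homeobox gene, fell by 0.72 ± 0.18 (0.0135). Ppard, a nuclear receptor, rose by 1.08 ± 0.28 (0.0176), and Aldh18a1, an enzyme of proline synthesis, rose by 0.85 ± 0.27 (0.0409). In KitWsh OVA lungs 2 of the 58 were then called, both lower (6.55% of all genes): Aldh5a1, which fell by 0.99 ± 0.26 (0.0245), and Cyp2s1, which fell by 0.56 ± 0.17 (0.0442). Between KitWsh and WT PBS lungs 3 were called, all lower (7.92% of all genes): Lpl by −0.64 ± 0.18 (0.0305), Rai2 by −0.91 ± 0.26 (0.0278) and Rdh11 by −1.69 ± 0.53 (0.0446). Between KitWsh_MCigeR and KitWsh OVA lungs 2 were called higher (1.61% of all genes), Aldh3a1 by 1.43 ± 0.31 (0.00929) and Pdk4 by 1.22 ± 0.31 (0.037). In OVA minus PBS of KitWsh_MCigeR mice the 4 genes called with all arrays (19.0% of all genes), Aldh3b1, Hoxa4, Lrp1 and Rxra, had adjusted p of 0.84 or more without that array.

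Rarb, which encodes retinoic acid receptor beta, was lower in KitWsh_MC than in KitWsh PBS lungs. KitWsh PBS arrays read 6.89, 5.81 and 6.13 and KitWsh_MC PBS arrays 4.78, 4.06 and 4.80, with no overlap. The difference was −1.73 ± 0.40 (limma, adjusted p = 0.029, and 0.00725 without KitWsh_MCigeR PBS array 2), a fall of at least 2.42-fold. The call ended without KitWsh_MC PBS array 1, 2 or 3 (adjusted p = 0.0504, 0.195 and 0.0552) or KitWsh PBS array 1 or 3 (0.194 and 0.11), and when arrays were centred on their median (0.0713), and the range over all alternatives was 4.4e-05 to 0.195. Rarb was the 1 of 58 list genes called there, where 1.20% of all genes were (median −0.05 beside −0.14 over all genes). KitWsh_MC OVA arrays read 4.27, 2.69, 3.51 and 3.71, the lowest group mean, while WT arrays read 6.51, 6.45, 6.72 and 5.50 with PBS and 4.80, 5.08, 5.54 and 5.92 with OVA. KitWsh OVA arrays read 4.73, 4.93, 5.72 and 5.69. KitWsh_MCifngR arrays read 5.99, 5.17 and 5.16 with PBS and 6.19, 6.03, 5.67 and 4.83 with OVA. The summed alveolar macrophage markers (8 of 9 passed, and Ear1 was not found by symbol) were 13.84 to 13.90 in KitWsh_MC PBS and 12.77 to 13.21 in KitWsh PBS arrays. The 3' minus 5' difference of GAPDH was 2.93, 3.57 and 2.13 against 0.55, 1.93 and 0.84, that of beta-actin 3.02, 3.41 and 2.33 against 1.74, 2.48 and 1.99. Cdh5 read 10.60, 10.38 and 10.57 against 11.24, 11.66 and 11.46. It is a single gene of the endothelial marker list, whose other members are not given here, so it does not stand for that list. The part of these in the Rarb result was not tested.

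The Rarb promoter holds the paired site that was not found in the windows of the 8 genes searched, and is shown for that reason, in capitals with 20 bases on each side, at chr14:16575493-16575549 on the minus strand of GRCm38.p6, ending 36 bases before the start.
Rarb: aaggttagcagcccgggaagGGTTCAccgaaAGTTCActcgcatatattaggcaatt
Of the windows of list genes, those of Rarb and Cyp26a1 held such a pair. It is a textbook retinoic acid response element, and the arrays did not measure binding to it.

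Between KitWsh_MCifngR and KitWsh_MC PBS lungs 3 of the 58 list genes were called, where 2.91% of all genes were (median 0.16, beside 0.23 over all genes). Adh7, an alcohol dehydrogenase that oxidises retinol, read 6.95, 6.83 and 7.26 in KitWsh_MCifngR and 6.09, 5.27 and 5.77 in KitWsh_MC arrays, a difference of 1.30 ± 0.31 (limma, adjusted p = 0.0171). Lyplal1, a lysophospholipase-like protein, read 7.02, 6.13 and 6.66 against 5.78, 5.64 and 5.26, a difference of 1.04 ± 0.28 (adjusted p = 0.0359). Rdh11, a dehydrogenase that interconverts retinol and retinal, read 6.03, 6.17 and 4.81 against 7.88, 7.87 and 8.06, a difference of −2.27 ± 0.61 (adjusted p = 0.0355). None of the 3 overlapped between these groups. Over the alternatives their adjusted p ran from 2.3e-05 to 0.191 for Adh7, from 0.000363 to 0.416 for Lyplal1 and from 8.17e-07 to 0.218 for Rdh11. With each gene's probe sets averaged, the difference was 0.63 (adjusted p = 0.153) for Adh7 and −1.20 (0.14) for Rdh11.

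RNA quality moved with this comparison. The beta-actin difference was 3.92, 3.60 and 4.19 in KitWsh_MCifngR PBS arrays and 3.02, 3.41 and 2.33 in KitWsh_MC PBS arrays, and the alveolar macrophage markers summed to 12.87 to 13.14 and 13.84 to 13.90. Their part in the result was not tested. Leaving out KitWsh_MC PBS array 2 or 3, or KitWsh_MCifngR PBS array 1 or 3, left none of the 3 genes called, leaving out KitWsh_MC PBS array 1 left 1 and leaving out KitWsh_MCifngR PBS array 2 left 2. With arrays centred on their median the directions held and 1 of the 3, Rdh11, was called.

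**Figure D4:**
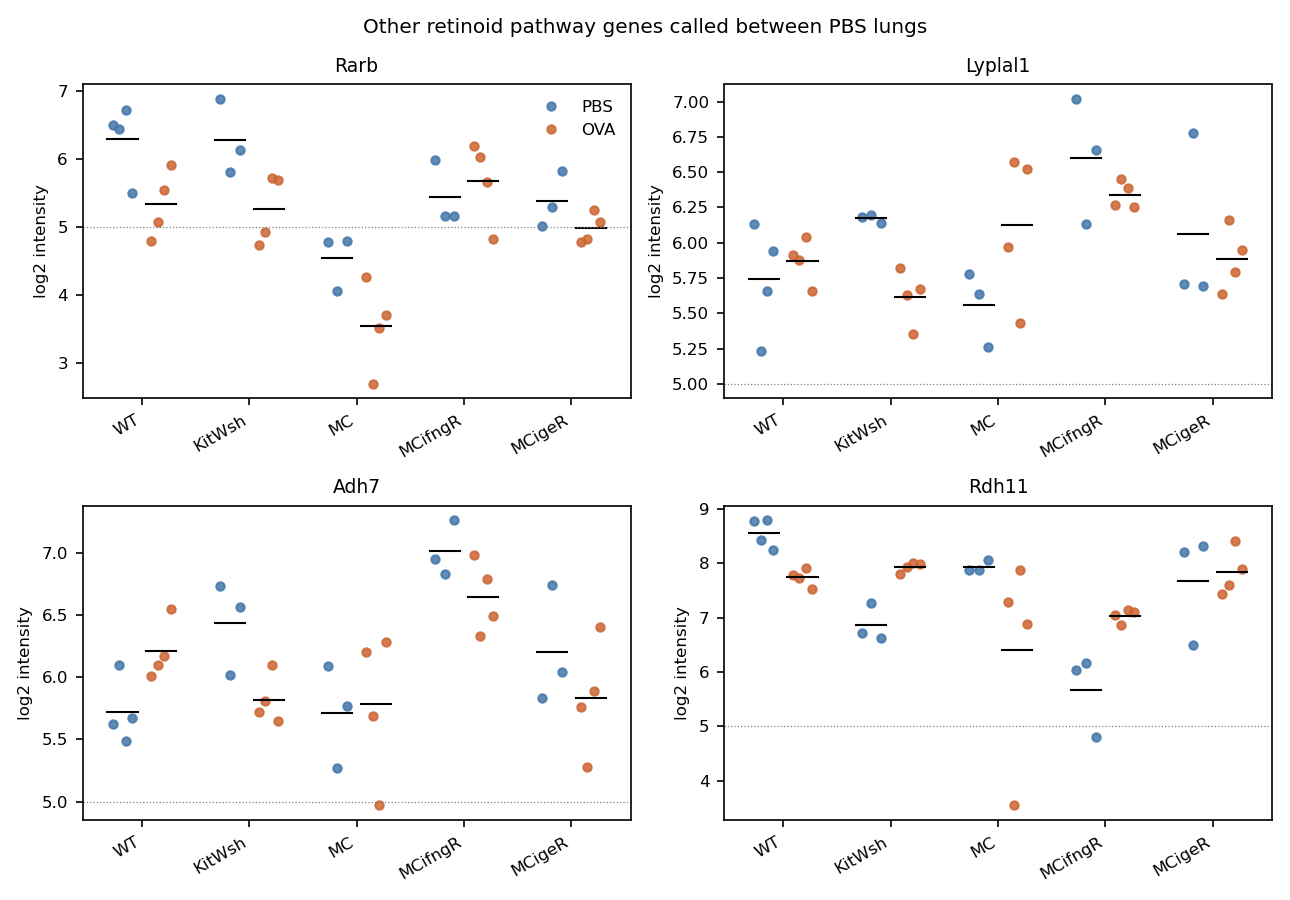
Log2 intensity (y axis, scaled per panel) of Rarb, Lyplal1, Adh7 and Rdh11 in PBS (blue) and OVA (orange) lungs of 5 kinds of mice (x axis), with group means as bars and the filter value of 5 as a dotted line. Rarb is lowest in KitWsh_MC lungs, and the KitWsh_MCifngR PBS arrays lie above (Lyplal1, Adh7) or below (Rdh11) those of KitWsh_MC.

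In KitWsh_MC OVA lungs, which chose the genes and carry no test, 2 list genes are given as values only, chosen after these were seen. Lrat, which stores retinol as esters, read 9.56, 8.78, 8.67 and 9.51 against 10.11, 10.40 and 10.54 with PBS. Fabp5, a carrier that can bring retinoic acid to nuclear receptors, read 13.73, 14.00, 13.91 and 13.86 against 13.01, 12.93 and 12.93. Neither gene overlapped between PBS and OVA there. The share of all genes without overlap is not given here, so this cannot be read as particular to them. In KitWsh_MCifngR lungs both genes overlapped, with Lrat at 11.12, 10.58, 10.18 and 10.29 with OVA and 10.96, 10.12 and 10.16 with PBS. Both also overlapped in WT, KitWsh and KitWsh_MCigeR lungs. A second Lrat probe set did not overlap in KitWsh_MC lungs either. In WT lungs it read 8.32, 8.58, 9.59 and 8.69 with OVA against 10.34, 9.88, 9.88 and 9.26 with PBS. In PBS lungs it read 8.23, 8.13 and 7.88 in KitWsh_MCifngR and 9.66, 10.28 and 10.77 in KitWsh_MC mice, a gap the first does not show.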

How the data were processed

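Total RNA of 36 lungs was measured on single-colour Affymetrix arrays. The authors deposited log2 intensities, for which the submitters' processing notes name GCRMA without a version. That method corrects background by probe sequence and sets unbound probes to a common floor. Values ran from 2.19 to 15.89 with array medians of 4.11 to 4.46, and no further normalisation was applied.

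Of 45101 probe sets, 64 controls were left out, 34945 had 1 gene symbol, 932 several and 9160 none. The probe set of highest mean stood for a gene. Genes above log2 5 in at least 3 arrays were tested (11599). Group means of the 10 groups were fitted with limma 3.58.1 (lmFit and eBayes, R 4.3.3, 26 residual degrees of freedom), with Benjamini-Hochberg adjustment over all genes tested and calls at an adjusted p under 0.05. The pipeline was tested on simulated data. Differences are log2 estimates ± standard error. Where every array of the lower group was under log2 5, a bound was computed with that group set to 5. The number of arrays limits the precision.

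Members and gene lists were chosen with earlier results of these data known. Of 14 comparisons, 9 were tested and 5, which the choice of genes used, are described. Named genes are the 9 members, list genes called in a tested comparison, the 5 genes of highest Pearson r with Aldh1a3 and with Rbp4, and markers given beside a member. Lrat, Fabp5, Cyp26a1 and the neighbours of Aldh1a3 and Rbp4 in subsets of arrays fall outside this rule and were chosen after their values were seen. Alternatives changed the normalisation, filter, probe set rule, samples fitted, spread estimate and array weights, and left out arrays. Promoters come from RefSeq tables of GRCm38.p6.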

Additional observations from a re-analysis of the deposited data

Results flagged for a closer look

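Some arrays lay far from the other arrays of their group by Dixon's criterion, which chance meets in about 1 in 20 groups. This held for 4 of 34 sets of values. Aldh1a1 was 13.47 in KitWsh_MCifngR OVA array 4, where the other 3 read 14.28 to 14.32. Cyp26b1 was 5.75 in KitWsh_MCigeR OVA array 1, beside 7.14 to 7.36. Rbp4 was 7.74 in KitWsh OVA array 1, beside 7.51 to 7.54, and 7.85 in WT OVA array 1, beside 8.02 to 8.05.

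In 10 of 56 comparisons of a gene between 2 kinds of mice, every OVA array of one kind lay under its PBS mean and every OVA array of the other above it. These differences between responses were not tested. The share of such pairs over all genes was not computed, so the count cannot be read as particular to these genes. Against KitWsh_MCifngR mice, where Rbp7 differed by 0.83, the Rbp7 response was 2.10 lower in WT mice (−1.27) and 2.41 lower in KitWsh mice (−1.58). The Dhrs3 response was 0.88 lower in WT mice (−0.51) and 0.59 lower in KitWsh mice (−0.22) than in KitWsh_MCifngR mice (0.37).

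The other 6 pairs involve KitWsh_MCigeR mice and so its PBS array 2. Dhrs3 was 0.88 there, 1.39 above WT and 1.10 above KitWsh mice. Aldh1a1 was 0.70 there, 1.04 above KitWsh (−0.34) and 1.15 above KitWsh_MC mice (−0.45). Rbp4 was 0.28 there, 0.46 above WT (−0.18) and 0.64 above KitWsh mice (−0.35). Without that array the KitWsh_MCigeR differences were −0.18 for Dhrs3, −0.092 for Aldh1a1 and −0.26 for Rbp4.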

How the results depend on the processing

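The counts of the 7 tested genes called, Aldh1a3 included, moved as follows. The cause was not tested beyond what each setting removes. The share of all genes called under a setting was not computed, except without KitWsh_MCigeR PBS array 2 as given above. These counts therefore cannot be read as particular to the 7 genes. OVA minus PBS in WT mice, 1 with all arrays, gave 0 with quantile normalisation, with centred arrays, with no filter and with a filter at log2 6, 2 with only the arrays compared, and 3 with array weights, without the 4 doubted arrays and without the 2 arrays of largest beta-actin difference (a setting chosen after seeing the data); leaving out 1 array gave 0 to 3. KitWsh mice, also 1, gave 0 with centred arrays, a filter at log2 6 or only the arrays compared, and 3 with array weights (0 to 1 leaving out 1 array). KitWsh_MCigeR mice, also 1, gave 0 with quantile normalisation, centred arrays, no filter, averaged probe sets, every probe set, only the arrays compared, array weights, and without the doubted or beta-actin arrays (0 to 4). From 0, array weights gave 3 for KitWsh minus WT with PBS, 1 with OVA and 2 for KitWsh_MCigeR minus KitWsh with OVA. KitWsh_MCifngR minus KitWsh_MC with PBS gave 1 with only the arrays compared, array weights or without the beta-actin arrays.

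Of the 58 list genes, the counts with only the arrays compared, with array weights, without the doubted arrays and without the beta-actin arrays were, in that order, 6, 32, 16 and 11 for OVA minus PBS in WT mice (from 0; averaged probe sets gave 1; leaving out 1 array, 0 to 5), 4, 29, 5 and 7 in KitWsh mice (from 0; 0 to 2) and 0 under all in KitWsh_MCigeR mice (from 4; 0 also with no filter, averaged or every probe set; 0 to 27). They were 10, 19, 3 and 3 for KitWsh minus WT with PBS (from 0; 0 to 3), 2, 8, 3 and 2 for KitWsh_MCigeR minus KitWsh with OVA (from 0; 0 to 2), 8, 14, 3 and 5 for KitWsh_MC minus KitWsh with PBS (from 1; 0 with centred arrays, 2 with averaged probe sets; 0 to 2), and 16, 19, 7 and 7 for KitWsh_MCifngR minus KitWsh_MC with PBS (from 3; 1 with quantile normalisation or centred arrays; 0 to 5). KitWsh minus WT with OVA gave 5, 1 and 1 under the last 3. The response of KitWsh minus WT gave 2 and 10 under the first 2 and 1 without the beta-actin arrays. Leaving out 1 array gave 0 to 0 in both. The share of all genes called was computed only with all arrays and without KitWsh_MCigeR PBS array 2. In WT mice that share rose from 1.36% to 9.32%. The other counts therefore cannot be read as particular to the list genes.

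Signs reversed in 58 values of 17 results of single genes, none of them called. In OVA minus PBS of KitWsh_MCigeR mice, array weights gave −0.023 for Aldh1a1 (0.70 with all arrays), −0.14 for Rbp4 (0.28), −0.19 for Dhrs3 (0.88) and 0.23 for Cyp26b1 (−0.024). Without PBS array 2, the doubted arrays or the beta-actin arrays they were −0.092, −0.26, −0.18 and 0.17. Leaving out 1 array gave −0.092 to 1.14, −0.26 to 0.64, −0.18 to 1.42 and −0.18 to 0.35. Quantile normalisation gave −0.11 for Rbp4, and centred arrays gave −0.23 for Rbp4, −0.32 for Rbp7 (0.19) and −0.49 for Aldh1a3 (0.02).

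The other reversals were of differences smaller than their standard errors. Leaving out 1 array, KitWsh minus WT with OVA ran from −0.068 to 0.19 for Aldh1a1 (−0.022 with quantile normalisation), −0.068 to 0.30 for Rbp7 and −0.031 to 0.14 for Dhrs3. The response of KitWsh minus WT ran from −0.20 to 0.13 for Aldh1a2 (0.041 centred, 0.029 weighted, 0.014 without the doubted arrays) and −0.85 to 0.032 for Rbp7 (0.030 weighted). KitWsh_MC minus KitWsh with PBS ran from −0.021 to 1.08 for Cyp26b1 and was 0.036 for Aldh1a1 with centred arrays. KitWsh_MCifngR minus KitWsh_MC with PBS ran from −0.083 to 0.12 for Aldh1a2 and −0.088 to 0.094 for Dhrs3 (−0.030 and −0.031 with quantile normalisation, −0.20 and −0.20 centred). Aldh1a3, at the floor, ran from −0.00020 to 0.0043 in OVA minus PBS of KitWsh mice and from −0.020 to 0.0071 in KitWsh_MCigeR minus KitWsh with OVA (0.0039 weighted).

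Rbp7 was called in WT mice in 7 of 10 other settings and 30 of 36 fits without 1 array, and in KitWsh mice in 8 of 10 and 32 of 36.

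No paired analysis was possible because the titles carry running numbers that the groups do not share. Values near the floor, such as those of Rbp7 and Aldh1a3, have little room to fall, and the small groups limit what can be detected.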
